A study of Mus musculus with 48 samples.

Results

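The bone morphogenetic protein (BMP) genes described here were 9 genes taken from a list: the ligands Bmp2 and Bmp4, the receptors Bmpr1a and Bmpr2, the inhibitory SMAD genes Smad6 and Smad7, and the target genes Id1, Id2 and Id3. They were found by symbol among the 53465 genes of the count table. RNA was sequenced from NeuroD1-positive cells, which are hormone-secreting enteroendocrine cells of the gut, in 48 libraries from 17 mice. The cells came from the top 5 cm of the small intestine (duodenum), its bottom 15 cm (ileum), and the colon with the rectum (colon), and the comparisons asked how the genes differed between regions and after stomach surgery. Of the 9 genes, 8 had enough counts to be tested, among 15126 genes tested in all.

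All the mice carried Neurod1-Cre and an EYFP reporter, so that cells which expressed Neurod1, or descended from cells that did, were fluorescent and could be sorted. They were lean adult males on standard chow, which was replaced by a liquid diet around the operation, and were sampled after a fast and an oral load of glucose. In vertical sleeve gastrectomy (VSG), about 70% or more of the stomach was removed. The sham ad libitum mice (S_al) were opened and given a suture that did not constrain the stomach, and ate freely. The sham weight-matched mice (S_wm) had the same sham operation and were fed so that their weight followed that of the VSG mice. Each region was represented by 6 VSG libraries and by 5 of each sham group, and 15 mice had a library from all 3 regions. Each library was 1 sort of many cells, so that fewer cells of a type and less RNA per cell cannot be told apart.

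BMPs are secreted ligands that bring type I and type II receptors together, and the activated type I receptor phosphorylates SMAD proteins that enter the nucleus and switch on target genes. Among the most direct targets are the Id genes, whose proteins lack a DNA-binding region and capture the basic helix-loop-helix factors that drive differentiation, and Smad6 and Smad7, which restrain the pathway. In the intestine, BMP signals are known to rise from crypt to villus, to come largely from the stroma, and to change which hormones enteroendocrine cells make.

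Total counts per library ranged from 4648651 to 17182463. Levels are given as counts-per-million (CPM) of the scaled library size, and differences as log2 fold changes with their standard error (SE) from edgeR's quasi-likelihood fit. A gene was called when its Benjamini-Hochberg adjusted p over all 15126 genes was under 0.05. The summed level of 6 enteroendocrine markers (Chga, Chgb, Neurod1, Scg2, Pcsk1 and Scgn) was 11466 to 98651 CPM, and that of 8 stromal markers, such as Col1a1, Pdgfra and Dcn, did not exceed 9.06 CPM in any library. The lowest enteroendocrine sum was in the duodenum library of sham weight-matched mouse 27, whose 6 enterocyte markers summed to 29008 CPM. Several Bmp2 and Smad7 values that rest on it are also given without it. No value of any gene that uses the library index described below is given without it. For mouse 12, 2 labels of the ileum and colon libraries were crossed and the tissue label was used. The D5 library index of the titles largely followed the region, so that for most genes the 2 cannot be told apart. For the 8 tested genes, the differences between regions with the index in the fit are given after them. For the other genes named below they are given only without it.

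CPM per kilobase of exon was used to compare levels between genes. Id1 was the highest of the 9, with 50.7 ± 15.7 CPM per kilobase (SD, n = 48). Id2 and Id3 followed with 29.8 ± 11.2 and 29.6 ± 7.58 CPM per kilobase, a difference smaller than their spread. Bmpr1a, a type I receptor, had 20.3 ± 4.01 CPM per kilobase. Smad7 had 16.7 ± 3.61 CPM per kilobase. The place of Bmp2 depended on the region. It had 3.97 ± 2.11 CPM per kilobase in the duodenum (SD, n = 16) and 8.49 ± 2.87 in the ileum, below Smad7 in both (15.2 ± 4.16 and 16.5 ± 3.81). In the colon it had 35.6 ± 9.59 CPM per kilobase, above Smad7 (18.3 ± 2.02) and with a mean above those of Id2 (28.04 ± 8.78) and Id3 (28.9 ± 6.18), by less than their spread. Smad6 had 9.10 ± 2.61 CPM per kilobase and Bmpr2, the type II receptor with the longest exons of the set, 4.94 ± 0.722. Bmp4 was near 0. The set thus held all 3 Id targets and both receptors at levels well above counting error, with a single clearly detected ligand.

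The genes also differed in how far libraries of the same group lay apart. The within-group SD on the log2 CPM scale was 0.19 for Bmpr1a and 0.19 for Bmpr2, at the 5.32 and 5.59 percentiles of all tested genes. It was 0.46 for Bmp2, 0.42 for Id1, 0.38 for Id2, 0.38 for Smad6, 0.35 for Id3 and 0.28 for Smad7. The receptors were therefore the steadiest members, and Bmp2 and Id1 the most variable.

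**Figure D1:**
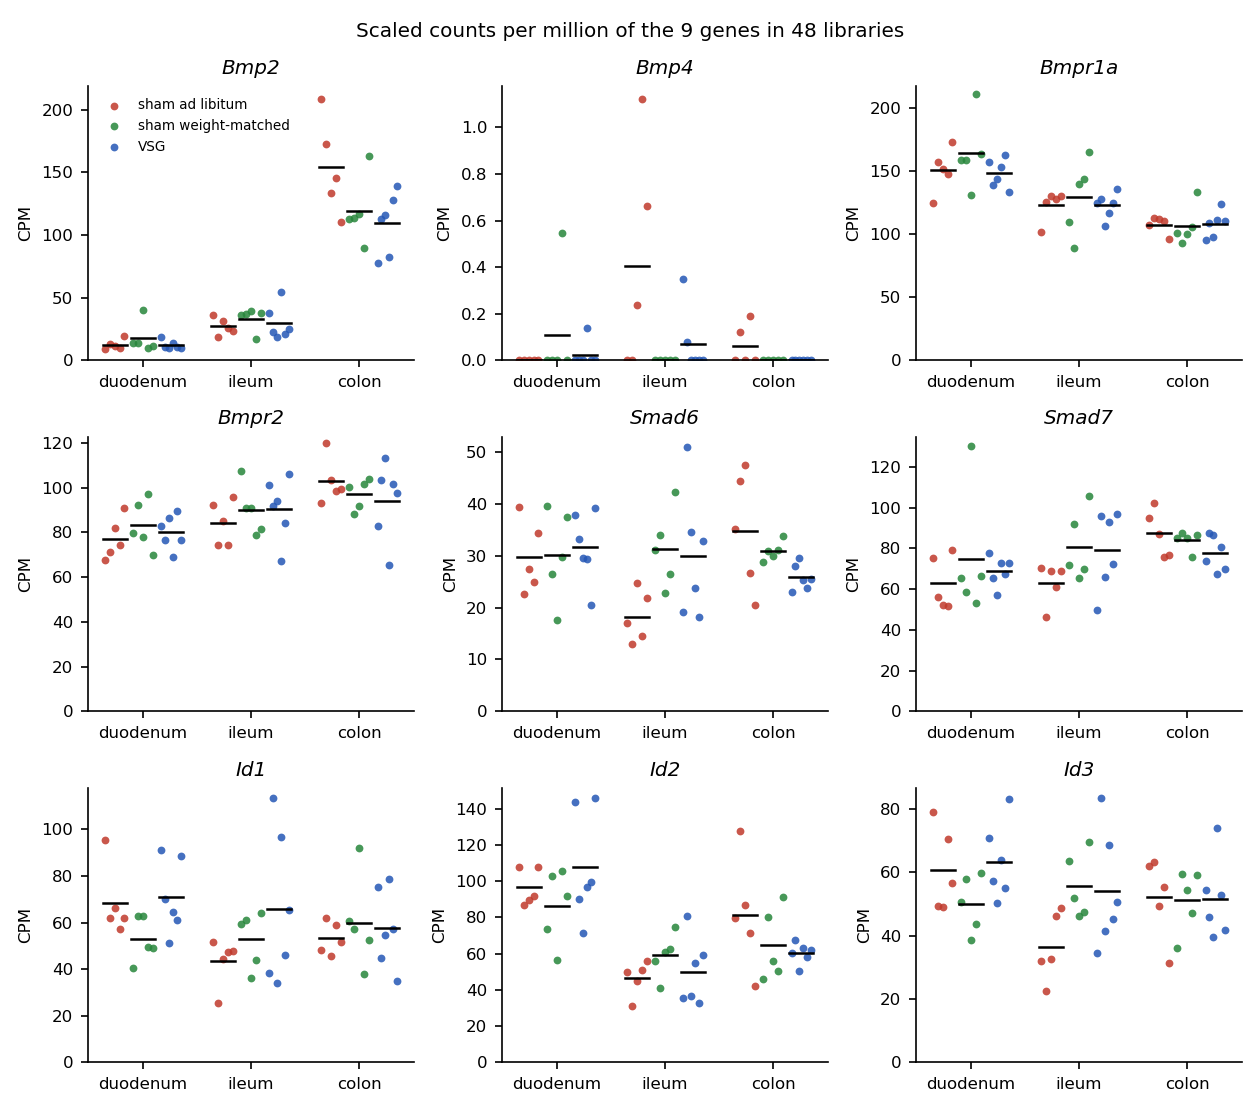
Level of each of the 9 genes in every library, in CPM, by region and surgery group, where each point is 1 library and each black bar a group mean. Bmp2 in the colon lies above every duodenum and ileum library, whereas the surgery groups overlap within regions, and the axis of Bmp4 ends near 1 CPM.

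Bmp2, the ligand detected in every library, rose along the gut. It lies on chr2:133552159-133562885 (GRCm38, plus strand). In the duodenum it ranged from 9.15 to 39.9 CPM with a median of 11.6, in the ileum from 17.3 to 54.7 with a median of 28.4, and in the colon from 77.6 to 208.8 with a median of 116.2. The 16 colon libraries did not overlap with those of the duodenum or of the ileum. The colon was 8.98-fold above the duodenum (log2 fold change 3.17, SE 0.17, edgeR adjusted p = 2.96e-20) and higher in all 15 mice with both regions. Against the ileum it was 4.20-fold higher (2.07, SE 0.17, edgeR adjusted p = 1.58e-14), in 16 of 16 mice. The ileum was 2.14-fold above the duodenum (1.10, SE 0.17, edgeR adjusted p = 1.07e-06), in 14 of 15 mice, with overlapping ranges. The highest duodenum value, 39.9 CPM, was that of mouse 27. Without that library the ileum difference was 1.27 (SE 0.15) and the colon difference from the duodenum 3.36 (SE 0.15), both called by edgeR. With the D5 index in the fit, the ileum difference was 0.55 (SE 0.28, edgeR adjusted p = 0.229).

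Bmp4, a ligand known from the gut stroma, had only 20 counts in all 48 libraries and was at 0 in 39 of them, so it was not tested. It lies on chr14:46383520-46390669 (GRCm38, minus strand). The sham ad libitum ileum held 10 of the 20 counts, at 0.239, 1.12 and 0.663 CPM in 3 libraries and 0 in the other 2. A count of 0 allowed up to 3 counts, or 0.165 to 0.744 CPM depending on the library, so that differences in Bmp4 were not detectable at this depth. Its exons share 89 bases with a gene on the opposite strand, and how strand entered the counting is not given in the sources used here.

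The receptors moved in opposite directions along the gut, and by small amounts. Bmpr1a, on chr14:34410734-34503341, ranged from 125.0 to 211.3 CPM in the duodenum (median 155.3), from 89.0 to 165.2 in the ileum (median 126.8) and from 93.1 to 133.3 in the colon (median 108.2). Of the 16 colon libraries, 15 were below every duodenum library. The colon value was below that of the duodenum in 15 of 15 mice, at 1.44-fold (log2 fold change -0.52, SE 0.07, edgeR adjusted p = 9.72e-09). The ileum was also below the duodenum (-0.30, SE 0.07, edgeR adjusted p = 0.000537) and the colon below the ileum (-0.22, SE 0.07, edgeR adjusted p = 0.0076). With the D5 index in the fit these were -0.30 (edgeR adjusted p = 0.143) and -0.21 (edgeR adjusted p = 0.0771). An antisense gene shares 290 of its exon bases, so part of its counts is uncertain.

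Bmpr2, the type II receptor that pairs with it, lies on chr1:59763400-59879014. It ranged from 67.7 to 97.1 CPM in the duodenum (median 78.9), from 67.1 to 107.2 in the ileum (median 91.0) and from 65.2 to 119.8 in the colon (median 99.8). Although the ranges overlapped, 11 of the 16 colon libraries exceeded every duodenum library. Bmpr2 was higher in the colon than in the duodenum (0.29, SE 0.07, edgeR adjusted p = 0.000432), in 13 of 15 mice, and by 0.27 (SE 0.16, edgeR adjusted p = 0.216) with the D5 index in the fit. The colon and ileum differed by 0.15 (SE 0.07, edgeR adjusted p = 0.0689). With the mouse as a replicate block the latter was called (0.15, SE 0.06, edgeR adjusted p = 0.0415), as it was by DESeq2 (0.17, DESeq2 adjusted p = 0.0374) and when mouse 11, 25, 27 or 30 was left out.

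Of the inhibitory SMAD genes, Smad7, which restrains both BMP and TGF-beta receptors, was somewhat higher in the colon. It ranged from 51.7 to 130.5 CPM in the duodenum (median 66.0), from 46.2 to 105.7 in the ileum (median 70.2) and from 67.3 to 102.3 in the colon (median 85.0). All 16 colon libraries were above the duodenum median, although the highest library of all was the duodenum library of mouse 27. The difference between colon and duodenum was 0.27 (SE 0.10, edgeR adjusted p = 0.0184), in 10 of 15 mice. Without the mouse 27 library it was 0.39 (SE 0.09, edgeR adjusted p = 0.000151). Without mouse 21 it was 0.24 with an adjusted p of 0.0506 by edgeR. With the D5 index in the fit its sign turned (-0.17, SE 0.18, edgeR adjusted p = 0.546). Smad6, which acts mainly on BMP receptors, did not pass the test between regions. Its medians in duodenum, ileum and colon were 29.6, 24.2 and 29.2 CPM, and the colon and duodenum differed by -0.01 with a 95% interval from -0.26 to 0.25. Without mouse 18, Smad6 was called in the ileum against the duodenum (-0.32, SE 0.13, edgeR adjusted p = 0.0482) and in the colon against the ileum (0.32, SE 0.13, edgeR adjusted p = 0.042).

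Among the Id genes, Id2 was the one that differed between regions. It ranged from 56.8 to 145.7 CPM in the duodenum (median 94.4), from 31.3 to 80.9 in the ileum (median 53.0) and from 42.4 to 127.5 in the colon (median 62.5). In the ileum, 11 of 16 libraries lay below every duodenum library. Id2 was 1.87-fold lower in the ileum than in the duodenum (-0.90, SE 0.13, edgeR adjusted p = 2.67e-07), in 14 of 15 mice. Its colon level was 1.41-fold below that of the duodenum (-0.50, SE 0.13, edgeR adjusted p = 0.000983), also in 14 of 15 mice. With the D5 index in the fit these were -0.70 (SE 0.26, edgeR adjusted p = 0.0724) and -0.30 (SE 0.31, edgeR adjusted p = 0.525). The colon exceeded the ileum (0.41, SE 0.13, edgeR adjusted p = 0.00833) in 11 of 16 mice, but without mouse 13 this was 0.29 with an edgeR adjusted p of 0.0555.

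Id1 and Id3 were not called between any pair of regions. Id1 had medians of 62.4, 47.5 and 55.9 CPM in the duodenum, ileum and colon, and its largest difference, ileum minus duodenum, was -0.26 (95% interval -0.54 to 0.02). Id3 had medians of 56.9, 46.9 and 53.6 CPM, and its ileum was below its duodenum by 0.27 on the log2 scale with an edgeR adjusted p of 0.0676. With the mouse as a replicate block, this difference was called (-0.32, SE 0.12, edgeR adjusted p = 0.0335). It was also called when mouse 18, 24, 25 or 32 was left out. With the D5 index in the fit it was 0.07 (SE 0.21, edgeR adjusted p = 0.888), of the other sign, and among libraries of 1 index it was -0.06 (edgeR adjusted p = 0.949).

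In counts, 3 of the 8 tested genes were called between ileum and duodenum, where 33.8% of all tested genes were called (17.2% higher and 16.6% lower). Of the 8, 1 rose and 2 fell. Between colon and duodenum 5 were called, 3 higher and 2 lower, against 55.0% of all genes (26.8% higher and 28.3% lower). Between colon and ileum 3 were called, 2 higher and 1 lower, against 49.2% of all genes (23.8% higher and 25.4% lower). These shares were near the background, and so are no result about the set as a whole. The median log2 fold change of the 8 was -0.25, -0.08 and 0.16 in the 3 comparisons, whereas that of all tested genes was 0.00, -0.01 and -0.01.

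**Figure D2:**
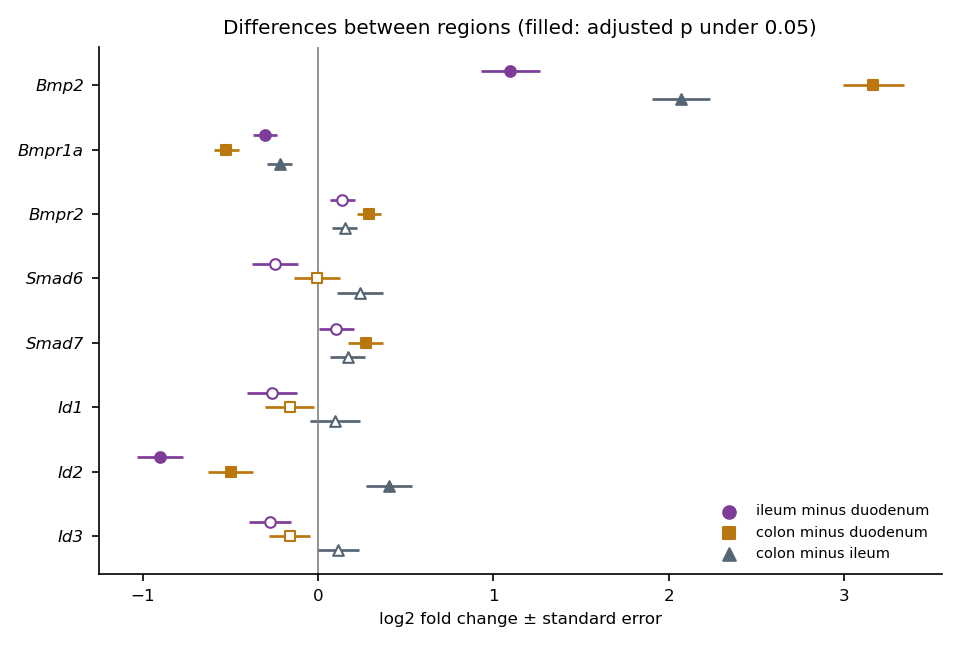
Log2 fold change between regions, averaged over surgery groups, for the 8 tested genes, with bars of 1 SE and filled symbols where the edgeR adjusted p was under 0.05. Bmp2 reaches 3.17 between colon and duodenum, and the other genes stay within 1 of 0.

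The D5 index and the region were nearly the same split of the libraries. Of the 16 duodenum libraries 12 had an index that no other region had, and of the 16 colon libraries 11 had one that a single ileum library shared. With the index in the fit, Bmp2 in the colon against the duodenum (2.67, SE 0.33) and against the ileum (2.13, SE 0.18) and Bmpr1a in the colon against the duodenum (-0.50, SE 0.15) were still called by edgeR, and no other difference between regions was. Of the calls lost, Bmpr2 in the colon against the duodenum (0.27), Id2 in the colon against the ileum (0.41) and Bmpr1a in the ileum against the duodenum (-0.30) and in the colon against the ileum (-0.21) kept about their size with larger SEs. Against the duodenum, Bmp2 in the ileum (0.55) and Id2 in the ileum (-0.70) and colon (-0.30) were smaller than without the index. Besides Smad7 in the colon against the duodenum, the sign turned for Smad7 in the ileum (0.10 to -0.31), Id3 in the ileum (-0.27 to 0.07) and colon (-0.16 to 0.28), and Smad6 in the ileum (-0.25 to 0.01) and colon (-0.01 to 0.23), all against the duodenum and none of them called.

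Among libraries of 1 index shared by 7 ileum and 4 duodenum libraries, the ileum minus duodenum difference was -0.68 (SE 0.26) for Id2, 0.47 (SE 0.35) for Bmp2 and -0.30 (SE 0.16) for Bmpr1a, with edgeR adjusted p values of 0.198, 0.55 and 0.361. These 3 had the direction found over all libraries, and none was called. The duodenum library of mouse 27 was 1 of these 4, and the duodenum shared no other index with another region. The mouse 27 library was also the lowest of the duodenum for Id2 (56.8 CPM), Id3 (38.7 CPM) and Smad6 (17.6 CPM). Its part in the values that use the index was not tested for any gene. Among libraries of another index, 4 from the colon and 8 from the ileum, colon minus ileum was 2.16 for Bmp2 (SE 0.24, edgeR adjusted p = 1.22e-05), 0.45 for Id2 (SE 0.16, edgeR adjusted p = 0.0449) and -0.27 for Bmpr1a (SE 0.11, edgeR adjusted p = 0.079). The part of the index in the other differences between regions was not tested further.

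Cell type markers moved between regions too. The summed enterocyte markers had medians of 4581, 4443 and 374 CPM in duodenum, ileum and colon, and the 6 crypt markers (Lgr5, Olfm4, Ascl2, Mki67, Top2a and Pcna) 1132, 2025 and 121 CPM. The 5 colonocyte markers had medians of 117, 165 and 1369 CPM, and were 483 to 1733 CPM in the colon, the region where Bmp2 was highest. The 5 goblet markers were also highest there, with medians of 3425, 3809 and 9022 CPM. The 4 Paneth markers had medians of 268, 2331 and 4.78 CPM. The part of these cells in the differences was not tested.

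Surgery was compared next, to ask whether the operation or the weight it costs was accompanied by changes in these genes. None of the 8 was called in any comparison between surgery groups by edgeR, DESeq2 or voom. Averaged over regions, Id1 differed between VSG and sham ad libitum mice by 0.26 (95% interval -0.02 to 0.53, edgeR adjusted p = 0.921) and Id3 by 0.20 (-0.03 to 0.43, edgeR adjusted p = 0.962). Smad7 differed by 0.10, and by 0.25 with the D5 index in the fit (SE 0.09, edgeR adjusted p = 0.343). The receptors had the narrowest intervals, from -0.14 to 0.13 for Bmpr1a and from -0.12 to 0.15 for Bmpr2. These averaged intervals treat libraries of 1 mouse as independent, although surgery differed only between mice, so they can be too narrow. Deviations of Bmpr1a from the group mean in the same mouse had r = 0.58 between ileum and colon. For duodenum and ileum r was 0.23, and for duodenum and colon 0.06. For the whole set of genes, 0% were called between VSG and sham ad libitum mice, 0.245% between VSG and sham weight-matched mice and 0.0529% between the sham groups. At an unadjusted p under 0.05, 0 of the 8 passed in these 3 averaged comparisons.

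Within regions, the calls over all genes were 0.225% for VSG against sham weight-matched mice in the duodenum. The ileum had 0.0463% and the colon 0.0595%. They were 0.0132% for the sham groups in the colon, and 0% for the other comparisons within regions and for the interaction of surgery and region. No member was among them. At an unadjusted p under 0.05, members appeared only in the ileum, where 3 of 8 passed for VSG against sham ad libitum (Id1, Id3 and Smad6) and 2 of 8 for the sham groups (Id3 and Smad6), against 6.16% and 7.85% of all genes. Both comparisons share the sham ad libitum libraries.

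In the ileum, Smad6, the inhibitor of BMP receptors, was 17.1, 13.04, 24.6, 14.6 and 21.9 CPM in the sham ad libitum mice. It was 31.1, 34.0, 22.7, 26.4 and 42.2 CPM in the sham weight-matched mice, and from 18.1 to 50.9 CPM (median 28.2) in the VSG mice. Of the sham ad libitum libraries, 3 were below all the others, while the groups overlapped. The log2 difference was 0.73 (SE 0.23, edgeR adjusted p = 0.519) for VSG and 0.79 (SE 0.24, edgeR adjusted p = 0.415) for weight-matched against ad libitum. Without mouse 18, the VSG value was 0.48.

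Id3 in the ileum was 32.02, 22.6, 32.8, 46.4 and 48.6 CPM in sham ad libitum mice and 63.4, 51.9, 46.1, 47.4 and 69.5 CPM in sham weight-matched mice. In VSG mice it ranged from 34.4 to 83.6 CPM (median 47.97). All 5 weight-matched and all 6 VSG libraries were above the ad libitum median, and again the groups overlapped. The log2 difference was 0.57 (SE 0.21, edgeR adjusted p = 0.588) for VSG and 0.61 (SE 0.21, edgeR adjusted p = 0.513) for weight-matched mice. VSG and weight-matched mice differed by -0.04 (95% interval -0.44 to 0.35).

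Id1 in the ileum was 51.5, 25.6, 44.5, 47.3 and 47.8 CPM in sham ad libitum mice and 59.3, 61.1, 36.3, 43.9 and 64.0 CPM in sham weight-matched mice. It spread widely in VSG mice, from 33.9 to 113.4 CPM with a median of 55.8, and 3 of these 6 libraries lay above every ad libitum library. The difference between VSG and ad libitum mice was 0.60 (SE 0.25, edgeR adjusted p = 0.723), and 0.36 to 0.74 when 1 mouse was left out. Id2 in the ileum showed 0.11 for the same comparison (95% interval -0.33 to 0.55). The crypt markers, which varied inversely with these genes within groups, had medians of 2492, 1763 and 2099 CPM in the ad libitum, weight-matched and VSG ileum. The Paneth sum had medians of 3867, 2005 and 1666 CPM and the immune sum 7.74, 3.29 and 4.70 CPM in the same order, and within groups they had r = -0.42 and r = -0.54 with Smad6. The part of these cells in the differences was not tested.

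In the other regions the same genes gave no such rise. For VSG minus sham ad libitum, Smad6 was -0.43 in the colon (95% interval -0.87 to 0.0005, edgeR adjusted p = 0.777) and 0.09 in the duodenum. No VSG or weight-matched colon library exceeded the ad libitum median of Smad6. For the same comparison Id3 was -0.03 in the colon and 0.06 in the duodenum. In the colon, VSG minus sham ad libitum was 0.11 for Id1 (95% interval -0.37 to 0.59) and -0.44 for Id2 (-0.87 to -0.01, edgeR unadjusted p = 0.0522, adjusted p = 0.777). Leaving out 1 mouse gave -0.60 to -0.22 for Id2. In the duodenum, Id1 was 71.2 ± 15.8 CPM in VSG mice (SD, n = 6), 68.6 ± 15.4 in sham ad libitum mice (n = 5) and 53.0 ± 9.80 in sham weight-matched mice (n = 5). Whether surgery differences differed between regions was tested jointly, and the edgeR adjusted p of the interaction was 1 for all 8 genes. At an unadjusted p under 0.05, 2 of the 8 (Id3 and Smad6) passed this joint test. The share of all genes that passed it is not given here, so this count is no result about the 8 genes.

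Bmp2 in the colon was 208.8, 172, 134, 145.5 and 111 CPM in sham ad libitum mice and 113, 114, 116, 89.7 and 163 CPM in sham weight-matched mice. It ranged from 77.6 to 139.5 CPM (median 114.5) in VSG mice. All 6 VSG libraries and 4 of 5 weight-matched libraries were below the ad libitum median, but the groups overlapped and no comparison was called. In the duodenum, VSG minus weight-matched was -0.53 for Bmp2 and -0.0008 without the library of mouse 27. There the D5 index also partly followed surgery: all VSG libraries had the same index, which most sham ad libitum libraries did not have. VSG minus sham ad libitum in the duodenum was 0.13 for Smad7 and -0.04 for Bmp2. With the index in the fit these were 0.57 (SE 0.17, edgeR adjusted p = 0.352) and 0.54 (SE 0.31, edgeR adjusted p = 0.634). The part of the index in them was not tested further.

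**Figure D3:**
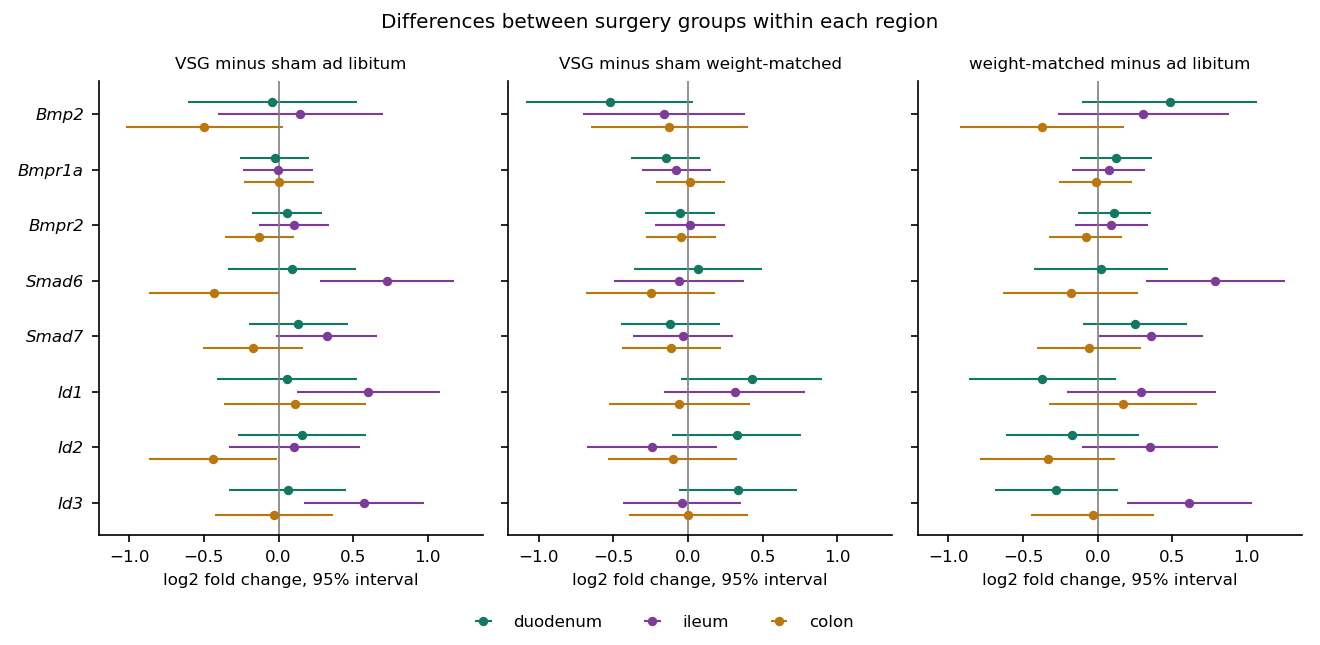
Log2 fold change between surgery groups within each region for the 8 tested genes, with 95% intervals from the edgeR fit. Smad6 (0.73 and 0.79) and Id3 (0.57 and 0.61) in the ileum lie to the right of 0 against sham ad libitum mice, and no value was called.

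Within groups, Id2, Id3 and Smad6 varied together from library to library, and Id1 did so less evenly. For each gene the log2 CPM was taken after removal of the mean of its group of region and surgery, and Pearson's r was computed over 48 libraries as a description, since libraries share mice, depth and composition. Id2 and Id3 had r = 0.74, and the values within duodenum, ileum and colon were 0.68, 0.79 and 0.73. Id1 and Id3 had r = 0.65, with 0.48, 0.86 and 0.40 in the 3 regions. For Id1 and Id2 r was 0.45, with 0.52, 0.74 and 0.03. Smad6 had r = 0.60 with Id2 and 0.54 with Id3, but 0.29 with Id1. In duodenum, ileum and colon these were 0.54, 0.60 and 0.71 for Id2, 0.63, 0.58 and 0.39 for Id3, and 0.17, 0.57 and -0.15 for Id1. Smad7 went with Id1 (0.54) and with Bmp2 (0.55). The Smad7 and Bmp2 value was 0.81 in the duodenum, where the library of mouse 27 was the highest in both, and 0.24 and 0.56 in ileum and colon. Without that library it was 0.50 in the duodenum and 0.36 over all regions. The receptors had r = 0.13 with each other, and Bmpr2 had r = -0.29 with Id3.

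**Figure D4:**
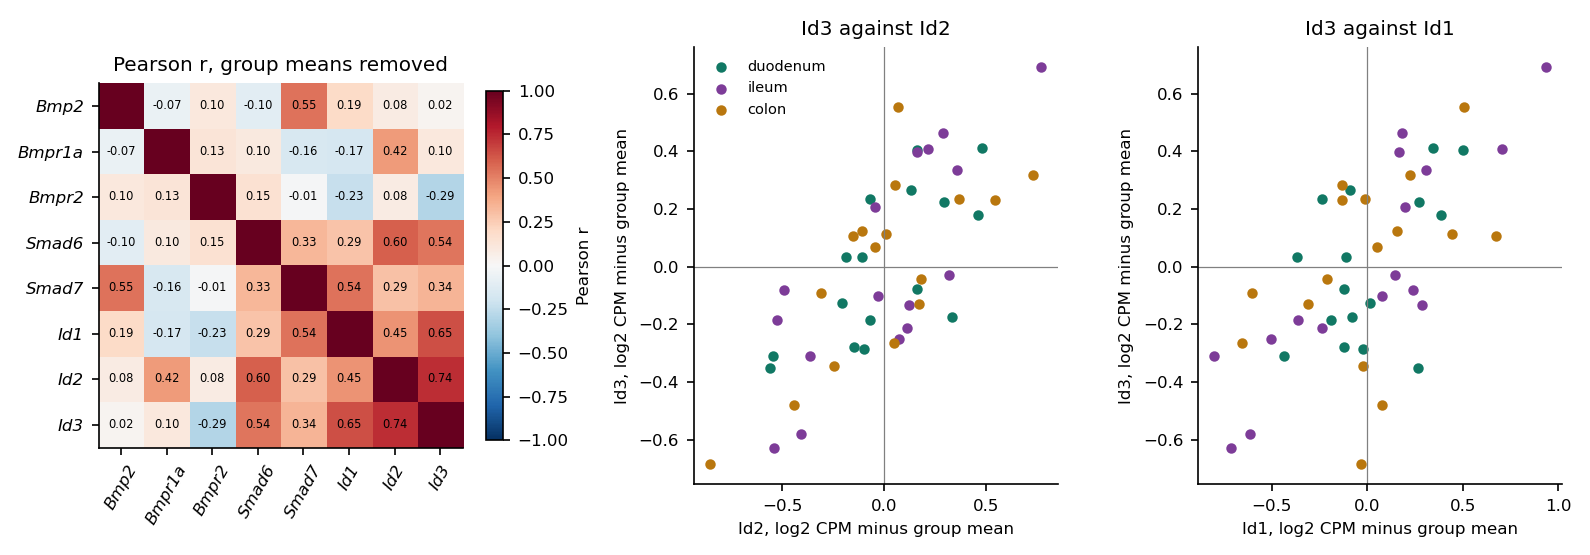
Left, Pearson's r between the 8 tested genes over 48 libraries after removal of the 9 group means. Middle and right, log2 CPM minus the group mean of Id3 against Id2 (r = 0.74) and against Id1 (r = 0.65), where each point is 1 library colored by region.

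Among all 15125 other tested genes, Id3 had the highest r with Id1. Next came Tob1 (0.64), which encodes an antiproliferative protein that binds SMADs, and Skil (0.64), a SMAD co-repressor. For Id3, Id2 ranked first, followed by AI413582 (0.71) and Sqstm1 (0.70), the gene of an autophagy receptor. For Id2, Rap1b (0.75), a small GTPase, ranked just above Id3, and Sqstm1 (0.74) just below. Smad6 went most closely with Epb41l1 (0.84), Nt5e (0.83), the ectonucleotidase that makes adenosine, and Kif1b (0.83), a kinesin motor. Smad7 went with Itpk1 (0.77), Slc15a1 (0.77), the peptide transporter of enterocytes, and Synpo (0.76). Bmp2 went with Vat1 (0.73), Slc43a2 (0.70) and March6 (0.70). Without the duodenum library of mouse 27 these values were 0.65 to 0.67 for Smad7 and 0.54 to 0.61 for Bmp2. The receptor genes had other neighbors, Mtch1 (0.76), Cnot6l (0.73) and Emb (0.73) for Bmpr1a, and Med13 (0.68), Zfp292 (0.67) and Lpp (0.66) for Bmpr2.

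The same deviations were set beside those of the marker sums. The crypt sum had r = -0.60 with Id3, -0.56 with Smad6, -0.52 with Id2 and -0.51 with Id1. The enterocyte sum had r = 0.65 with Smad7 and 0.52 with Bmp2, which were 0.46 and 0.28 without the duodenum library of mouse 27. The enteroendocrine sum had r = 0.57 with Smad6. The duodenum library of mouse 27 had the lowest enteroendocrine sum and a Smad6 deviation of -0.71, and its part in this value was not tested. The sum of 6 endothelial markers had r = 0.54 with Smad6, which endothelial cells are known to express. That sum was mostly Pecam1 (20.2 CPM on average), while the defining endothelial genes Cdh5 and Emcn averaged 0.133 and 0.0345 CPM and were at 0 in 38 and 42 of the 48 libraries. The part of crypt cells, enterocytes and endothelial cells in these relations was not tested.

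Of the 9 genes, 6 (Id2, Id3, Smad6, Bmp4, Bmpr1a and Bmpr2) were matched among the RefSeq promoter sequences (GRCm38.p6), and Id1, Smad7 and Bmp2 were not. The 250 bases before the start were searched on both strands, and those of Id2, Id3 and Smad6, which varied together, are described first. The motifs were GGCGCC and GGAGCC, GC-rich motifs bound by SMAD complexes, GTCT, the general SMAD box, and CANNTG, the E-box of helix-loop-helix factors. The GC-rich matches are shown here because the Id genes and Smad6 are direct BMP targets, each as 30 bases of the gene's strand with the match in capitals.
Id2, 231 bases before the start, chr12:25096306-25096335, minus strand: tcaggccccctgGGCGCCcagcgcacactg
Id2, 88 bases before, chr12:25096163-25096192, minus strand: gtatgatggacgGGAGCCcttccaccaatg
Id3, 187 bases before, chr4:136143623-136143652, plus strand: cctcgcatccgaGGCTCCgctgtcctcggc
Smad6, 102 bases before, chr9:64022144-64022173, minus strand: accagccccctcGGAGCCtcgggctcagca
Smad6, 18 bases before, chr9:64022060-64022089, minus strand: aatcagcgccgcGGAGCCgccaaagtgtct
The Id3 match is GGAGCC read on the other strand. Among 32851 promoters of the same length, GGCGCC was in 9.59%, GGAGCC in 26%, GTCT in 82.9% and CANNTG in 66.2%. The promoters of Id2, Id3 and Smad6 all held GGAGCC and GTCT, and Id2 alone of the 3 held GGCGCC and an E-box. The Id3 stretch and the second Id2 stretch lie in exons of other annotated transcripts of these genes, and the other 3 lie outside exons. Of the other matched genes, Bmpr1a and Bmpr2 each held GGCGCC once, and Bmp4 held GGAGCC once. A match is a description of the letters and not a bound site.

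The rest of the pathway was read from a list of 39 other BMP ligands, receptors, SMADs and modulators, of which 26 were tested. Between ileum and duodenum 10 of the 26 were called (3 higher, 7 lower), between colon and duodenum 19 (10 higher, 9 lower) and between colon and ileum 18 (9 higher, 9 lower), where 33.8%, 55.0% and 49.2% of all tested genes were. Their median log2 fold changes were -0.01, 0.10 and 0.07. The differences between regions of these genes and of the lists below are given without the D5 index in the fit, and its part in them was not tested. None was called between surgery groups by edgeR, where between 0 and 5 of 26 passed an unadjusted p of 0.05. Of all tested genes, 2.45% to 9.92% passed it in these comparisons.

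Other ligands differed along the gut too. Bmp3, a BMP that antagonizes others, had a mean of 13.6 ± 4.78 CPM in the duodenum (SD, n = 16), against 33.1 CPM for ileum and 68.3 CPM for colon, and its ileum minus duodenum difference was 1.31 (SE 0.14, edgeR adjusted p = 3.5e-10). Bmp7 was highest in the ileum, at 19.2 CPM against 4.04 in the duodenum and 11.5 in the colon. Gdf7 was low everywhere, with 1.64 CPM in the colon and 0.0337 in the duodenum (5.48, SE 0.65). That duodenum mean lay below the 0.165 to 0.744 CPM that a count of 0 allowed in a library, so the size of the difference is uncertain. Bmp8b averaged 1.70 CPM in the ileum and at most 0.40 CPM in the other regions.

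Another type I receptor, Bmpr1b, rose in the colon to 2.41 CPM from 0.290 CPM in the duodenum (3.27, SE 0.51, edgeR adjusted p = 3.45e-07), while Bmpr1a fell. The duodenum mean of Bmpr1b lay within the floor of 0.165 to 0.744 CPM, so the size of its rise is uncertain. Extracellular modulators went both ways. The co-receptor Rgma (3.98, SE 0.50) was higher in colon than duodenum, and the antagonist Nog was higher in colon than ileum (3.80, SE 0.50). The follistatin genes Fstl1 (-5.74, SE 0.36) and Fst (-3.49, SE 0.41) were below the duodenum level in the colon. Bambi, a pseudoreceptor that blocks BMP and TGF-beta receptors, averaged 47.9, 15.9 and 5.77 CPM in duodenum, ileum and colon (-3.05, SE 0.17 for colon minus duodenum, edgeR adjusted p = 2.2e-20). Of the signaling SMADs, Smad9 was lower in the ileum than in the duodenum (-1.11, SE 0.19, edgeR adjusted p = 9.42e-06).

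Of 10 further BMP target genes listed, 7 were tested, and 5, 7 and 6 of them were called in the comparisons of ileum with duodenum, colon with duodenum and colon with ileum, against 33.8%, 55.0% and 49.2% of all tested genes. Between colon and duodenum 4 were higher and 3 lower. Id4, the remaining Id gene, rose from 0.521 CPM through 1.56 CPM to 3.99 CPM from duodenum to colon (2.92, SE 0.38 for colon minus duodenum, edgeR adjusted p = 4.79e-09), while Id2 was lower in both distal regions. Gata2 (3.29, SE 0.31) and Dlx3 (2.34, SE 0.33), both transcription factors, also rose from duodenum to colon, and Hhex (-3.05, SE 0.53) and Msx1 (-2.87, SE 0.51) fell. Tnfrsf11b, which encodes the decoy receptor osteoprotegerin, was highest in the ileum at 115 CPM, with 47.2 CPM in the duodenum and 7.98 CPM in the colon. The listed targets thus did not go one way between regions.

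Of 18 genes of the related TGF-beta and activin branch, 15 were tested, and 5, 11 and 11 were called in the same order of comparisons, beside the same shares of all genes (33.8%, 55.0% and 49.2%). Tgfbr2, the type II TGF-beta receptor, averaged 10.5, 15.9 and 50.6 CPM in the duodenum, ileum and colon (2.25, SE 0.15 for colon minus duodenum, edgeR adjusted p = 8.55e-18). Inhbb, an activin subunit, was less abundant in the colon (-1.90, SE 0.21), and so was Acvr1c, an activin and nodal receptor (-1.46, SE 0.15). Neither this branch nor the targets had a gene called between surgery groups by edgeR, and at most 3 of 15 and 1 of 7 passed an unadjusted p of 0.05, against up to 9.92% of all genes.

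The E proteins and helix-loop-helix factors that Id proteins capture or oppose were 9 genes, all tested, of which 6, 7 and 8 were called, against 33.8%, 55.0% and 49.2% of all genes. Neurod1, the gene behind the sort, averaged 660, 412 and 255 CPM from duodenum to colon (-1.35, SE 0.15 for colon minus duodenum, edgeR adjusted p = 4.91e-11), and Neurog3, which starts the enteroendocrine lineage, was lower in the colon as well (-2.27, SE 0.45). Atoh1 (3.42, SE 0.24) and the Notch target Hes1 (1.14, SE 0.13) were higher in the colon than in the duodenum. The E proteins moved less, Tcf3 by -0.36 (SE 0.08) and Tcf12, called between colon and ileum, by -0.23 (SE 0.08). None of the 9 was called between surgery groups by edgeR, and at most 2 passed an unadjusted p of 0.05, again against up to 9.92% of all genes.

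**Figure D5:**
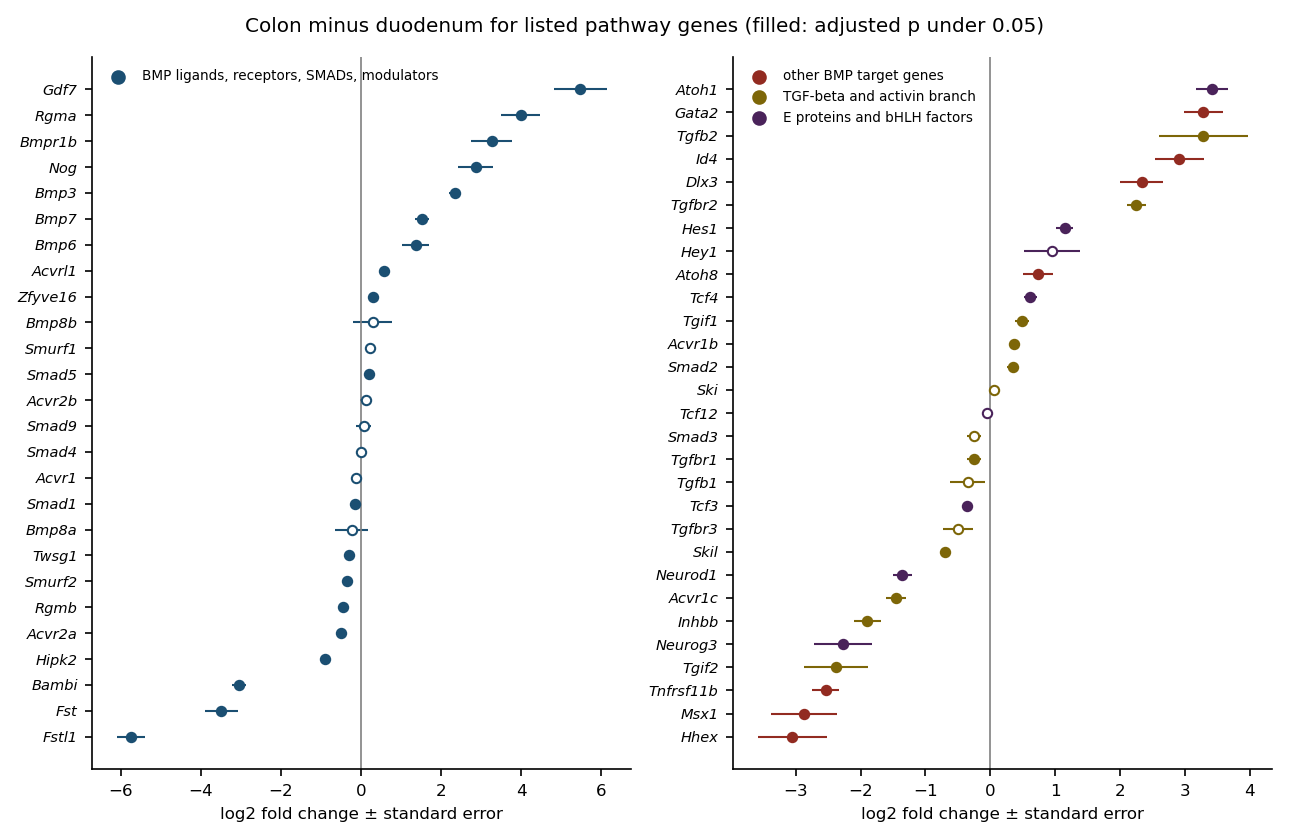
Colon minus duodenum log2 fold change with bars of 1 SE for tested genes of the pathway lists, filled where the edgeR adjusted p was under 0.05. On the left, Gdf7 (5.48) is at the top and Fstl1 (-5.74) at the bottom, and on the right Atoh1 (3.42) is at the top and Hhex (-3.05) at the bottom.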

How the data were processed

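RNA from sorted NeuroD1-positive cells (48 libraries, 17 mice) was sequenced by the authors as single reads from a stranded kit. They deposited counts per gene, made with STAR 2.5.1 on GRCm38 with Ensembl genes, as whole numbers without normalization. Whether strand was used in counting is not given in the sources used here, so counts of overlapping genes are uncertain. Of 53465 genes, 53360 were matched by identifier to GENCODE M21, whose exons gave lengths and positions. No column was unmatched to a sample.

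Tests used edgeR 4.0.16 (R 4.3.3) with filterByExpr over the 9 groups of region and surgery, TMM scaling, a mean for each group and the robust quasi-likelihood method, and p was adjusted over 15126 genes by Benjamini-Hochberg with a threshold of 0.05. The study's methods used DESeq2 with operation and region. The SE was taken as the absolute log2 fold change over the root of F. The 95% intervals used this SE with a normal distribution and are slightly narrower than the F test implies. An interval can thus exclude 0 where the unadjusted p is over 0.05. Region contrasts were averaged over surgery groups and surgery contrasts over regions or taken within one. Within-group relations used log2 CPM with a prior count of 2. The members and lists were chosen with earlier results of these data known. Named genes were the members, up to 3 per direction and list with the largest change past the threshold in each region contrast, list genes past it in a surgery contrast, and the 3 genes closest to each member within groups. Some genes that this rule names are counted with their lists but not reported here. Markers of goblet, Paneth, tuft, immune, glial and neuronal cells were also summed.

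Alternatives were DESeq2 1.42.0 or its size factors, no filter or at least 10 counts in every library of a group, limma 3.58.1 voom with or without the mouse as a random replicate block, edgeR with it as a fixed block, the D5 library index as a covariate or held constant, only the libraries compared, and omission of mouse 12's crossed libraries, mouse 27's duodenum library and each mouse in turn. The number pairs libraries of 1 animal across regions (46 pairs, median correlation of deviations 0.111, range -0.07 to 0.391, 25 over 0.1), and surgery groups hold different mice. Scripts were tested on simulated data. Among 105 pairs of libraries of 1 group the chi-square per gene was at least 8.14, so none was a duplicate. Total counts of 4648651 to 17182463 set a floor of 3 counts, and floors cover counting error only.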

Additional observations from a re-analysis of the deposited data

Results flagged for a closer look

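Among 72 groups of 5 or 6 libraries (8 tested genes, 9 groups), Dixon's ratio marked 7 libraries as far from the rest of their group, where chance marks about 1 group in 20. Of these, 2 were the duodenum library of sham weight-matched mouse 27, at 39.9 CPM for Bmp2 (next 13.6) and 130.5 CPM for Smad7 (next 66.4); the same library had the highest enterocyte sum, 29008 CPM, and the part of enterocytes was not tested. Mouse 29, also weight-matched, was low for Bmp2 in the ileum, at 17.3 CPM (next 36.3), and for Smad7 in the colon, at 75.9 CPM (next 85.0). Sham ad libitum mouse 12 was high for Id1 in the duodenum, at 95.6 CPM (next 66.4), and low for Bmpr1a in the ileum, at 102.0 CPM (next 125.7), in 1 of the libraries with crossed labels. Sham ad libitum mouse 13 was low for Id1 in the ileum, at 25.6 CPM (next 44.5).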

How the results depend on the processing

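With the D5 library index in the fit, 0 of 8 genes were called between ileum and duodenum, 2 between colon and duodenum (Bmp2 and Bmpr1a) and 1 between colon and ileum (Bmp2), in place of 3, 5 and 3, and Smad7 in the colon against the duodenum turned to -0.17. In libraries of 1 index (4 duodenum and 7 ileum), 0 were called between ileum and duodenum. Leaving out 1 mouse gave 3 to 5 calls between ileum and duodenum (5 without mouse 18, with Id3 and Smad6 added), 4 to 5 between colon and duodenum and 2 to 4 between colon and ileum. With the mouse as a fixed replicate block, 4, 5 and 4 were called, with Id3 and Bmpr2 added as described, and no other call changed. The shares of all genes called under these alternatives are not given here, so a gain or loss of calls is not read as particular to the 8 genes. No member was called between surgery groups under any alternative. Smad7 was called between ileum and duodenum without mouse 27 (0.23, edgeR adjusted p = 0.0386) and was 0.20 (edgeR adjusted p = 0.0593) without its duodenum library alone, but with the D5 index in the fit it was -0.31. Of 3280 log2 fold changes recomputed, 22 gained a call, 13 lost it with the sign kept and 1 lost it with the sign turned. A further 33 uncalled ones moved by over 1 SE. The sign changed in 159, of which 1, Smad7 as above, had been called. For 8 chosen pairs of genes, all 160 within-group correlations recomputed after the data were seen stayed inside the interval of the reported value. The alternatives left out at most 1 mouse and the interval is wide, so this could hardly have come out otherwise. Smad7 with Bmp2 moved from 0.55 to 0.36 inside it. The causes were not tested. Bmp4 was limited by depth.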
